A study of Mus musculus with 3 samples.

Results

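The collagen chain genes are the protein-coding genes on mouse chromosomes 1 to 19 whose symbol is Col, a number, the letter a and a number, and 41 of 21418 protein-coding genes met this rule. They comprised 11 fibrillar collagens, 4 basement membrane collagens and 26 other collagens. Binding of the transcription factor TFAP2A was read from ChIP-seq (chromatin immunoprecipitation followed by sequencing) in melan-a cells, an immortalised mouse melanocyte line derived from normal embryonic skin with the genotype Cdkn2a tm1RDp/tm1RDp. The series held 3 samples, of which 2 were precipitated with the AP-2alpha (3B5) antibody (replicate 1 and replicate 2) and 1 was input chromatin that received no antibody. All were untreated cells of the same line, grown with 12-O-tetradecanoylphorbol 13-acetate (a phorbol ester) and cholera toxin in the medium. The labels do not say whether the replicates came from separate cultures, so their spread may be technical.

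Collagens are secreted proteins in which chains wind into a helix, and they build most of the extracellular matrix. Fibrillar collagens (types I, II, III, V, XI, XXIV and XXVII) assemble into the fibrils of dermis, bone and cartilage. Type IV collagens form the sheet-like network of basement membranes, and epidermal melanocytes sit on the basement membrane between epidermis and dermis. The other collagens decorate fibrils, form beaded filaments or short-chain networks, anchor epithelia, or span the plasma membrane. TFAP2A binds DNA at GC-rich palindromic sites, here searched as GCCNNNGG on both strands. The deposited lists describe where the protein was bound and hold no expression level, so no statement about collagen RNA or protein is made here.

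A peak is a region that the peak caller scored above background, its summit is the position of highest signal, and its fold enrichment is the caller's ratio of signal to background. Replicate 1 had 18151 peaks on chromosomes 1 to 19 and replicate 2 had 20991. Sequencing depth was not known for either list. Ranges in brackets after a percentage are 95% intervals (exact, Clopper-Pearson), which reflect counting error alone, and neither genes nor peaks are replicates of a condition. Of the cell type markers, 5 of 7 melanocyte genes (Mitf, Sox10, Dct, Tyrp1 and Mlana), 1 of 5 fibroblast genes (Pdgfra) and 0 of 4 keratinocyte genes had promoter summits in both replicates, against 17.5% of all protein-coding genes. Summits do not give expression, so the labelled cell type could not be checked from them. Tyr had promoter summits in replicate 2 only and Pmel had none in either.

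The 10 most enriched collagen regions present in both replicates are shown first, since the account of individual genes turns on them. Each line gives 101 bases of the plus strand of build mm9 centred on the replicate 1 summit, with bases of a GCCNNNGG match on either strand in capitals.
Col14a1 downstream, chr15:55400183-55400283: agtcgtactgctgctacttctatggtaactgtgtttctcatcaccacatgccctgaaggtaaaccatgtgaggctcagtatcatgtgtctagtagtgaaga
Col4a3 downstream, chr1:82742591-82742691: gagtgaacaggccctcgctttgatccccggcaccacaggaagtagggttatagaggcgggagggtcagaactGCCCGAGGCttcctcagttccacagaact
Col8a1 intron 2, chr16:57641956-57642056: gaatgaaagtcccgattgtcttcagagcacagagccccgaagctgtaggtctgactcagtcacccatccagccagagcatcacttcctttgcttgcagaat
Col14a1 intron 24, chr15:55268813-55268913: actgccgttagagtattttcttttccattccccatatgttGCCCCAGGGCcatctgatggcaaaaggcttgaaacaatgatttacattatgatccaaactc
Col8a1 intron 1, chr16:57736038-57736138: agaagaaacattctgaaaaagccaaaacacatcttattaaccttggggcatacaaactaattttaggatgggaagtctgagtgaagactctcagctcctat
Col28a1 intron 3, chr6:8122096-8122196: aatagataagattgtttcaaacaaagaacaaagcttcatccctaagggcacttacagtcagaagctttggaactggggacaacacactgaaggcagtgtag
Col4a1 intron 2, chr8:11259936-11260036: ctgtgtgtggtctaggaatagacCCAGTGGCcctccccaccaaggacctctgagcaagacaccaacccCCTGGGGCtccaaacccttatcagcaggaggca
Col28a1 downstream, chr6:7940017-7940117: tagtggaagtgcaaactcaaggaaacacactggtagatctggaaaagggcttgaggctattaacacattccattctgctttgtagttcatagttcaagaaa
Col4a4 intron 38, chr1:82473416-82473516: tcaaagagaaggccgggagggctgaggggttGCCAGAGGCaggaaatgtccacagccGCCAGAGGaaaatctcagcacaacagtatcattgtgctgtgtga
Col25a1 intron 2, chr3:129954482-129954582: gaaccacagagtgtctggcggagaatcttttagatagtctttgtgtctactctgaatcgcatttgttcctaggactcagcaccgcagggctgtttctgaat
These regions lay in or beside Col14a1, Col4a3, Col8a1, Col28a1, Col4a1, Col4a4 and Col25a1. Of all 15732 regions found in both replicates 57.2% held a match at the summit, as did 55.2% of the 105 at collagens. Of the 10 windows shown, 4 held a match and the other 6 did not.

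The strongest of them lay beyond the 3′ end of Col14a1, a collagen that attaches to the surface of fibrils, with a fold enrichment of 23.5 in replicate 1 and 26.8 in replicate 2 (25.2 ± 2.32, SD, n = 2). Its summit was 8102 bp upstream of the nearest transcription start site (TSS), that of Mtbp. Among all 15732 regions found in both replicates, 149 (0.947%) had a higher mean. The next had values of 20.4 and 27.3 (23.8 ± 4.87, SD, n = 2) and lay beyond the 3′ end of Col4a3, a basement membrane chain, but only 857 bp upstream of a TSS of Mff. The third lay in intron 2 of Col8a1, a short-chain collagen, with 22.0 and 23.8 (22.9 ± 1.32, SD, n = 2). Its nearest TSS was that of 2610528E23Rik, 35027 bp away, against 112844 bp for that of Col8a1. The other 7 had means from 13.5 in intron 2 of Col25a1 to 20.2 in intron 24 of Col14a1, and all 10 were among the upper 8.45% of regions found in both replicates.

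The promoter of a gene was taken as 5 kb upstream to 1 kb downstream of the TSS of any annotated transcript. In this window 7 of 41 collagens had a summit in both replicates, or 17.1% (7.15 to 32.1), against 17.5% of all protein-coding genes. The 7 were Col1a2, Col5a1 and Col27a1 among the fibrillar genes, and Col6a3, Col9a3, Col15a1 and Col16a1 among the others. Replicate 1 alone gave 9 collagens (22.0%, against 19% of all genes) and replicate 2 alone gave 13 (31.7%, against 21.4%). With this window the collagen share in both replicates was close to the genome-wide share, and with 1 kb to each side of a TSS it was lower, 3 of 41 (7.32%) against 13.2%. The lower share rests on only 3 genes, and the difference was not tested.

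By class, the promoter held summits of both replicates in 3 of 11 fibrillar genes (27.3%, 6.02 to 61.0), 0 of 4 basement membrane genes (0 to 60.2) and 4 of 26 others (15.4%, 4.36 to 34.9). These intervals overlapped widely, so a difference between the classes was not detectable with so few genes. Replicate 1 alone gave 3 fibrillar, 0 basement membrane and 6 other genes, and replicate 2 alone gave 5, 2 and 6.

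**Figure D1:**
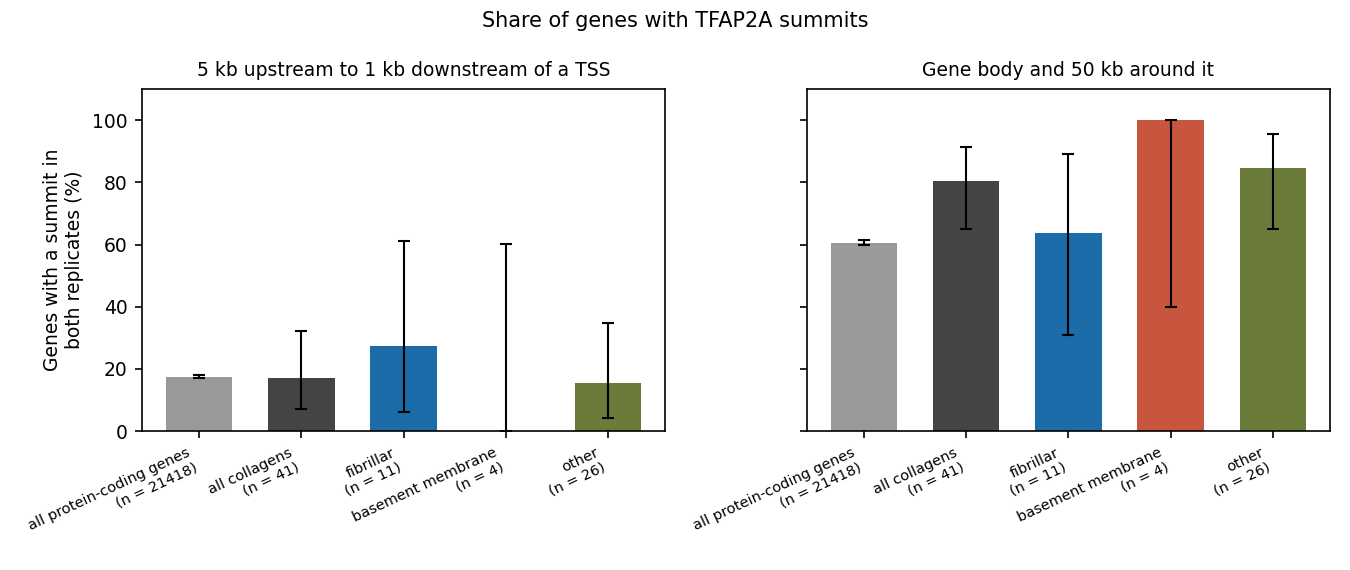
Percentage of genes (vertical axis) with a TFAP2A summit in both replicates in the promoter window (left) and in the gene body and 50 kb around it (right), for all protein-coding genes, all collagens and the 3 collagen classes. Bars are percentages and lines exact 95% intervals over genes; collagens stood at 17.1% against 17.5% in the left panel and at 80.5% against 60.6% in the right.

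Most of these promoter summits fell in the windows of internal start sites and not in that of the 5′ end of the gene. When only the most upstream start of each gene was used, Col5a1 and Col6a3 were left, 2 of 41 collagens (4.88%) against 14.2% of all genes. When only transcripts annotated as protein-coding were used, a setting added after the data were seen, Col5a1, Col6a3 and Col16a1 were left (7.32% against 16.3%). Both collagen shares rest on very few genes, and the differences were not tested. The sequences below are those of a promoter region of Col5a1 and of Col6a3, the genes with a summit in the window of the 5′ end, and of the strongest promoter region of Col1a2, Col15a1 and Col16a1, which fell in windows of internal starts. They are given in the same way as above.
Col5a1, chr2:27742749-27742849: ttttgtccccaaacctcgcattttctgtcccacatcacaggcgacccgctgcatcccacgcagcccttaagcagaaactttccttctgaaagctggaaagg
Col6a3, chr1:92745309-92745409: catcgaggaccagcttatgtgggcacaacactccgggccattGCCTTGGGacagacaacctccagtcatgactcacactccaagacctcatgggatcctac
Col1a2, chr6:4478345-4478445: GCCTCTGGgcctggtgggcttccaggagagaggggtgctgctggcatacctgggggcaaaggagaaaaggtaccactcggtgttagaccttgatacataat
Col15a1, chr4:47245958-47246058: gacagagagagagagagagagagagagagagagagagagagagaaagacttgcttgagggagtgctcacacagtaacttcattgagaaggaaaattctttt
Col16a1, chr4:129727645-129727745: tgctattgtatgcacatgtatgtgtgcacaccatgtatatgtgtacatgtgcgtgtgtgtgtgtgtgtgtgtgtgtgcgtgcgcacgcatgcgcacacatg
The Col6a3 and Col1a2 windows held a match. The Col15a1 summit stood at the edge of a run of GA repeats, and that of Col16a1 in a GT-rich stretch.

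Col5a1 encodes the chain of type V collagen that helps set fibril diameter. Its promoter region, 854 bp downstream of the 5′ end in intron 1, had folds of 4.08 and 3.92. Replicate 1 added a summit 592 bp upstream of the 5′ end (3.22) and replicate 2 one 143 bp downstream of it (3.07), so each list placed a further weak peak at this start without the peaks overlapping. For Col6a3, a chain of the beaded filament collagen VI, the shared region lay 4830 bp upstream of the 5′ end, with folds of 3.16 and 3.02. Both promoters were thus bound at about the same level in the replicates, below the median of 6.89 over all collagen regions found in both.

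Col1a2, a chain of the main fibrillar collagen of skin, had 2 promoter regions, 22132 bp and 23581 bp into the gene. The first had folds of 3.59 and 6.92, and the second 4.48 and 11.9, both higher in replicate 2. The ratio of 2.65 in the second was the highest between replicates of all collagen regions. Col15a1, a multiplexin of basement membrane zones, had one region with folds of 10.1 and 14.3 (12.2 ± 2.94, SD, n = 2) 131 bp upstream of an internal start and another with 5.55 and 7.04. Col16a1, which associates with fibrils, had 3 promoter regions, with folds of 11.6 and 9.52 in the first, 7.33 and 8.08 in the second and 3.59 and 3.37 in the third. The Col9a3 region had 7.15 and 5.26, and that of Col27a1 4.95 and 4.55.

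A further 8 collagens (19.5%) had a promoter summit in 1 replicate only, against 5.42% of all protein-coding genes. Of the 10 promoter regions seen in 1 replicate, 8 lay in the window of a 5′ end, against 2 of the 11 promoter regions found in both, and the folds of the 10 ran from 2.25 to 5.91. Replicate 1 alone had a summit 11 bp upstream of the 5′ end of Col28a1 (4.61) and another 192 bp downstream of that of Col12a1 (4.48). Replicate 2 alone had one 950 bp downstream of the 5′ end of Col1a1 (4.46), 1720 bp upstream of that of Col5a3 (4.64) and 325 bp upstream of that of Col23a1 (4.82). Col4a1 and Col4a2 lie head to head and share a promoter, and replicate 2 alone placed 1 summit there, 94 bp upstream of the 5′ end of Col4a2, with a fold of 2.25. The last gene of this group, Col9a1, had a summit 3268 bp upstream of an internal start in replicate 2 only (5.91). The other 26 collagens (63.4%, against 77.1% of all genes) had no promoter summit in either list.

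The wider window was the gene body and 50 kb to each side. It held a summit of both replicates in 33 of 41 collagens, 80.5% (65.1 to 91.2), against 60.6% of all protein-coding genes. Replicate 1 alone gave 33 collagens (80.5%, against 62.7%) and replicate 2 alone 37 (90.2%, against 66.0%). Collagen genes are long, with a median length of 107 kb against 15.5 kb for all protein-coding genes, and a longer gene has a longer window. Among genes of at least 50 kb the shares were 22 of 26 collagens (84.6%, 65.1 to 95.6) and 72.1% of all, so the background value fell within the collagen interval. Among shorter genes they were 11 of 15 (73.3%) and 57.4%. Col12a1 had its single summits at different places in the replicates, and 32 collagens (78.0%, against 59.9% of all genes) had the same region in both.

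By class, the window held summits of both replicates in 7 of 11 fibrillar genes (63.6%, 30.8 to 89.1), 4 of 4 basement membrane genes (39.8 to 100) and 22 of 26 others (84.6%, 65.1 to 95.6). No summit lay in the window of 4 collagens (9.76%, against 31.9% of all genes) in either replicate, namely Col3a1 (a fibrillar chain of skin and vessels), Col7a1 (the anchoring fibril collagen of the dermal-epidermal junction), Col22a1 and Col6a5. The windows of Col11a1, Col11a2, Col5a3 and Col6a6 held summits of replicate 2 only.

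Counted over distinct positions, the merged collagen windows (8.22 Mb) held 127 summits in replicate 1 and 144 in replicate 2, or 15.4 and 17.5 per Mb (16.5 ± 1.46, SD, n = 2). The merged windows of all protein-coding genes held 10.1 and 11.6 per Mb, and chromosomes 1 to 19 as a whole 7.58 and 8.77. Each collagen value was above both all-gene values. Within gene bodies alone the density was 18.2 ± 0.761 per Mb in collagens and 11.2 ± 1.22 in all protein-coding genes (SD, n = 2). Among genes of at least 50 kb, 17 of 26 collagens (65.4%) and 50.7% of all genes had summits of both replicates inside the gene body. The collagen share rests on 26 genes, and this difference was not tested. The collagen density was carried by few genes, as the 5 windows with the most summits held 42.5% of the distinct summits in replicate 1 and 38.2% in replicate 2.

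The classes differed in density. Fibrillar windows held 10.6 and 13.5 summits per Mb, basement membrane windows 26.3 and 40.2, and the other windows 15.8 and 16.0 in replicates 1 and 2. The basement membrane values were above those of both other classes in each replicate, but the class consists of only 2 loci that differed from each other. The Col4a1/Col4a2 locus held 39.9 and 62.7 summits per Mb, and the Col4a3/Col4a4 locus 13.5 and 18.9. The high class value therefore came from Col4a1/Col4a2.

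**Figure D2:**
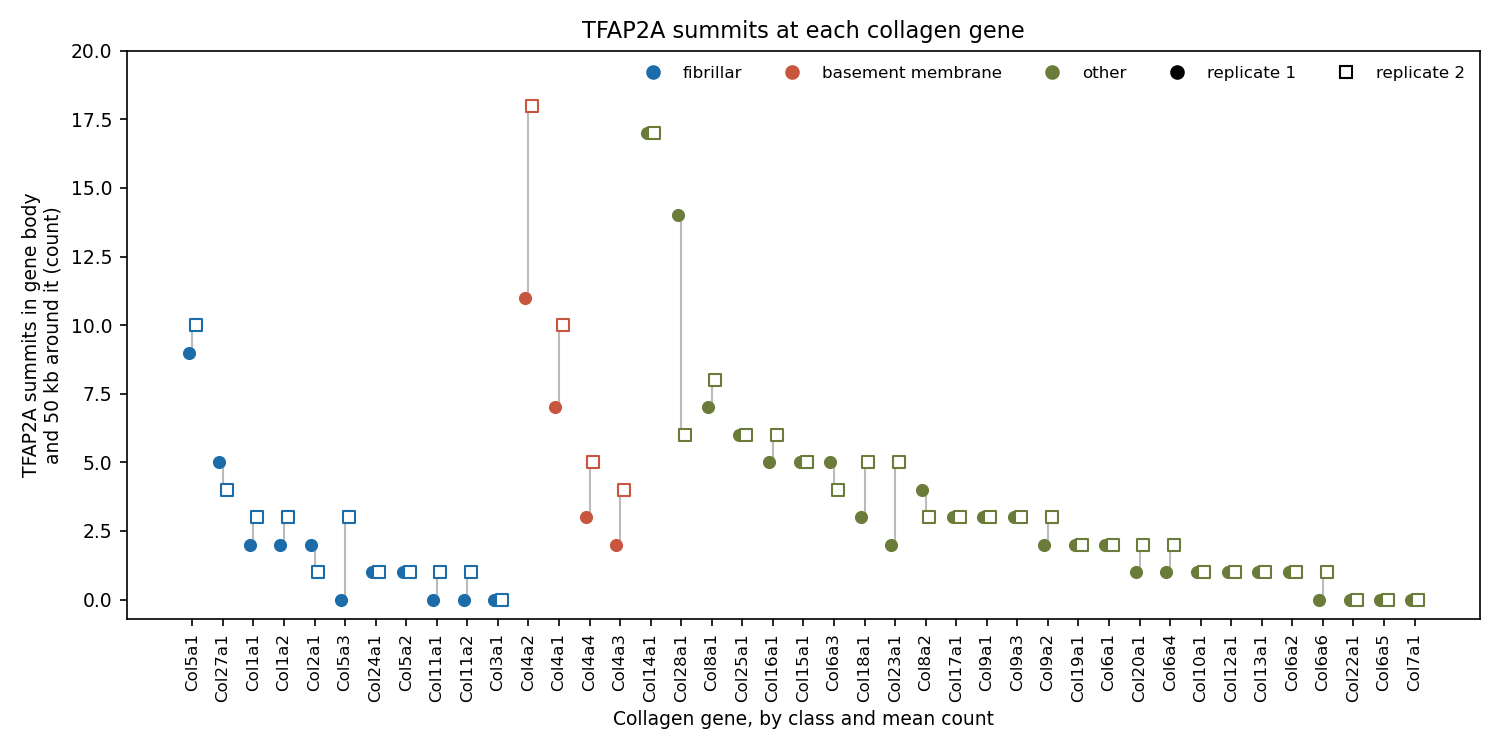
Number of TFAP2A summits in the gene body and 50 kb around it (vertical axis) for each of the 41 collagen genes, ordered by class and mean count; filled circles are replicate 1 and open squares replicate 2, joined by a line. Col14a1 stood at 17 in both replicates, Col4a2 at 11 and 18 and Col28a1 at 14 and 6, while the median gene had 2 and 3.

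A window held at most 17 summits in replicate 1 and 18 in replicate 2, and the median over the 41 genes was 2 and 3. The counts were equal in the replicates for 18 genes, higher in replicate 2 for 18 and higher in replicate 1 for 5. Across the 41 genes the counts of the replicates had a Spearman correlation of 0.90, and the mean count had one of 0.24 with gene length. Over all protein-coding genes the correlation with length was similar, at 0.28. These are descriptions across genes that share libraries and, for neighbours, summits. A longer collagen was thus not regularly one with more summits, as Col22a1 (238 kb) had none and Col5a1 (153 kb) had 9 and 10.

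Col14a1 had the most summits, 17 in each replicate. Of its regions 15 were present in both, 11 of them in introns, with mean folds from 3.69 to 25.2. In addition to the regions shown above, one in intron 40 had 11.5 and 14.8 and one 37381 bp upstream had 15.7 and 8.64. No summit lay in its promoter, and the nearest upstream one stood 7982 bp from the 5′ end. A GCCNNNGG match at the summit was found in 6 of the 15, against 57.2% of all regions found in both replicates.

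Col4a2 had 11 summits in replicate 1 and 18 in replicate 2, and Col4a1 had 7 and 10, some of them shared since the genes adjoin. These genes encode the chains of the widespread type IV network. The locus had 14 regions in both replicates, and no replicate 1 peak was without a partner in replicate 2. Intron 2 of Col4a1 held the strongest, with 16.6 in both replicates (16.6 ± 0.0178, SD, n = 2), and 2 neighbouring regions in the same intron had 11.8 and 9.37, and 10.6 and 11.0. In Col4a2, 5 regions lay in intron 4, with mean folds from 3.43 to 7.65. 2 regions that lie upstream of Col4a1 by its strand, with 6.85 and 4.93 and with 11.1 and 10.3, are inside Col4a2, and one upstream of Col4a2 with 9.14 and 9.57 is inside Col4a1. A match was found in 11 of the 14 regions, against 57.2% of all regions found in both replicates.

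Col28a1, a collagen with von Willebrand factor A domains, was the gene with the largest excess in replicate 1, 14 summits against 6. All 6 replicate 2 peaks had a partner, and the 8 regions of replicate 1 only had folds from 4.15 to 6.71. In the strongest region, in intron 3, replicate 1 was also higher, at 21.4 against 14.0 (17.7 ± 5.23, SD, n = 2). In the second, beyond the 3′ end, replicate 2 was higher, at 15.4 against 13.0. The gene and 1 Mb to each side held 22 summits in replicate 1 and 14 in replicate 2, or 8 in each replicate once those of the Col28a1 window were left out. Chromosome 6 as a whole had 1094 and 1115.

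**Figure D3:**
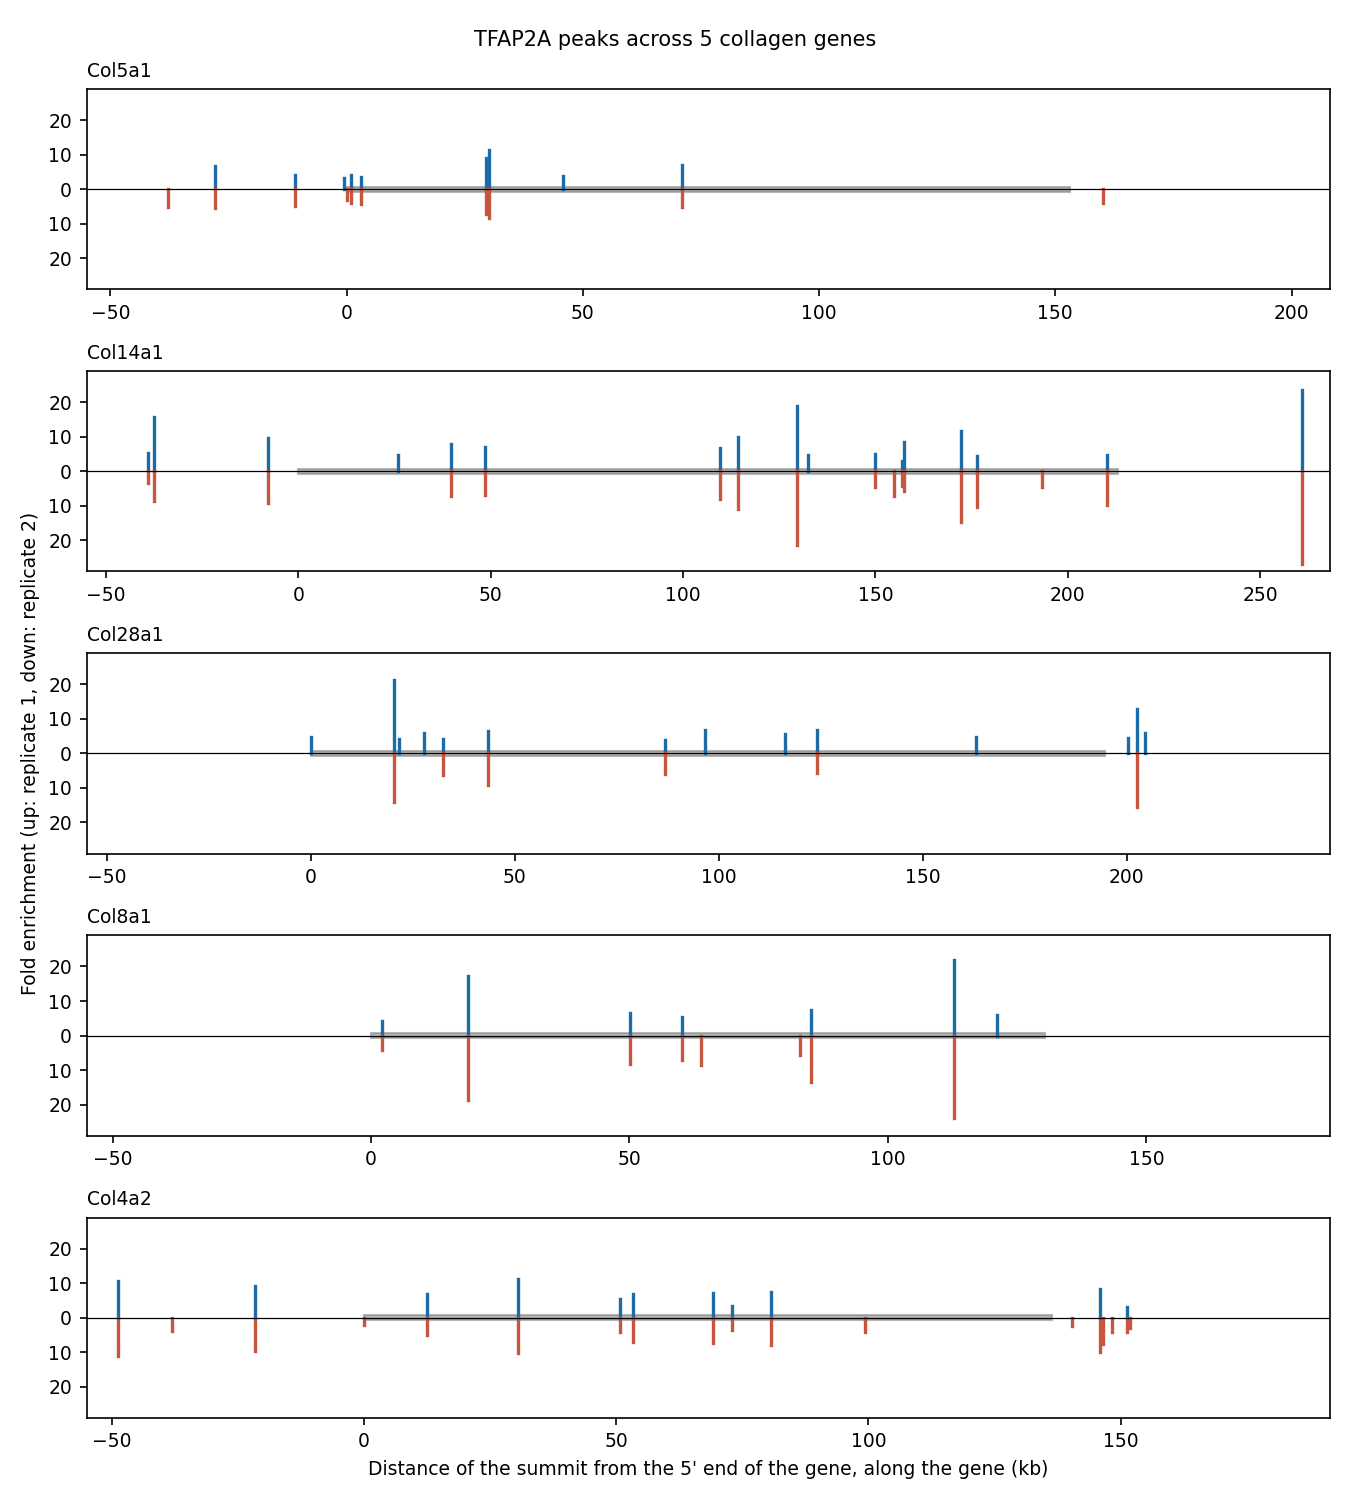
TFAP2A peaks across Col5a1, Col14a1, Col28a1, Col8a1 and Col4a2, with the distance of each summit from the 5′ end along the gene in kb (horizontal axis, grey bar for the gene) and its fold enrichment (vertical axis, upward in blue for replicate 1 and downward in red for replicate 2). Peaks lay mostly inside the gene and away from its 5′ end, and Col28a1 had 8 peaks of replicate 1 with no partner below; the bars left of 0 in the Col4a2 map lie in the adjoining Col4a1.

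Col5a1 had 9 and 10 summits, the most of the fibrillar genes. Its strongest regions formed a pair in intron 1, about 30 kb from the 5′ end, with folds of 11.2 and 8.34 in one and 8.93 and 7.18 in the other. Col8a1 had 7 and 8 summits, all inside the gene. Its 6 shared regions ranged from 4.11 to 22.9 in mean fold, and the second strongest, in intron 1, had 17.2 and 18.7. Col25a1, a transmembrane collagen, had 6 and 6 summits, of which its intron 2 region shown above had 15.3 and 11.8. Col15a1 had 5 and 5, and Col16a1 5 and 6.

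Col27a1 and Col6a3, each with 5 and 4, tied for the last place among the 10 genes with the most summits, and both are described, so that 11 genes are given. In Col27a1, a fibrillar collagen of cartilage, one region in intron 50 had 9.14 in replicate 1 and 4.69 in replicate 2, and this ratio of 0.513 was the lowest of all collagen regions. Its other shared regions differed little, for example 5.51 and 5.70 in intron 37. In Col6a3 the shared regions had mean folds from 3.09 to 7.11.

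Several collagens had few but well enriched regions. The single region of Col5a2, a fibrillar chain, lay 13641 bp upstream of the gene with 12.2 and 14.6. Col17a1, the hemidesmosome collagen of basal keratinocytes, had a region beyond its 3′ end with 13.0 and 11.2 (12.1 ± 1.23, SD, n = 2), whose nearest TSS was that of Slk, 12805 bp away. Col9a2, a cartilage collagen, had one upstream with 9.17 and 14.0, nearer to Smap2 than to Col9a2. Col18a1, a basement membrane zone multiplexin, had 2 upstream, with 11.6 and 9.05 and with 9.95 and 8.67.

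The remaining members had 5 summits or fewer in either replicate. Among the fibrillar genes, Col1a1, the partner chain of Col1a2, had 2 shared regions beyond its 3′ end, with 4.94 and 4.60 and with 3.20 and 4.34, the second at a TSS of Ppp1r9b. Col2a1, the cartilage collagen, had one 26255 bp upstream with a mean of 7.24 ± 2.48 (SD, n = 2), higher in replicate 1, and Col24a1 had one in an exon with 4.77 in both lists. Col11a1, Col11a2 and Col5a3 had none in both, and their replicate 2 peaks had folds from 2.26 to 5.47.

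In the basement membrane genes, Col4a4 had 3 shared regions, with 13.1 and 14.7 in intron 38, 10.1 and 8.78 in intron 36, and 6.28 and 9.88 beyond the 3′ end. All 3 held a match. Besides its region near Mff, Col4a3 had one in intron 43 with 3.88 and 7.53. The promoter that Col4a3 and Col4a4 share head to head had no summit in either replicate.

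In the collagen VI cluster on chromosome 10, Col6a1 and Col6a2 shared a region with 8.70 and 8.59, and Col6a1 had a further one upstream with 4.20 and 5.89. In the cluster on chromosome 9, Col6a4 had one shared region upstream with 4.08 and 8.95 and Col6a6 a single peak in replicate 2 with 6.21. The short-chain gene Col8a2 had its best region upstream, with 9.81 and 9.68, nearer to Trappc3. Col10a1, the hypertrophic cartilage collagen, had one 37340 bp upstream with 6.90 and 6.27.

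Of the fibril-associated genes, Col9a1 and its neighbour Col19a1 shared a region in intron 18 of Col9a1 with 6.15 and 6.50, and Col20a1 had one with 3.51 and 3.49 at the TSS of Arfgap1. Of the transmembrane genes, Col13a1 had one beyond its 3′ end with 4.92 and 5.62, nearer to H2afy2. Col23a1 had 2 there, with 5.66 and 5.85 and with 5.15 and 5.86. The first of these was 869 bp from a TSS of Hnrnpab and the second 4069 bp from one of Nhp2. None of these remaining collagens had a shared region above 10 in mean fold except Col4a3 and Col4a4.

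Over all windows, the collagen peaks formed 166 regions, of which 105 were found in both replicates, 22 in replicate 1 only and 39 in replicate 2 only. Of the 39, 3 overlapped a replicate 1 peak that was paired with another replicate 2 peak. Of the 105, 53 lay in introns (7 of them in intron 1), 26 upstream, 14 downstream, 11 in promoters and 1 in an exon. The nearest TSS of a protein-coding gene belonged to a collagen in 85 of them (81.0%), and 9 (8.57%) lay in the promoter window of another protein-coding gene, such as Mff, Ogfr or Arfgap1. A region in a collagen window is therefore not shown to act on that collagen. In these regions the ratio of replicate 2 to replicate 1 had a median of 1.05 and lay within 1.5-fold in 88, and the summits were a median of 26 bp apart. Regions of 1 replicate were weaker, with medians of 4.63 in replicate 1 and 4.55 in replicate 2, against 6.67 and 6.92 in the shared ones.

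**Figure D4:**
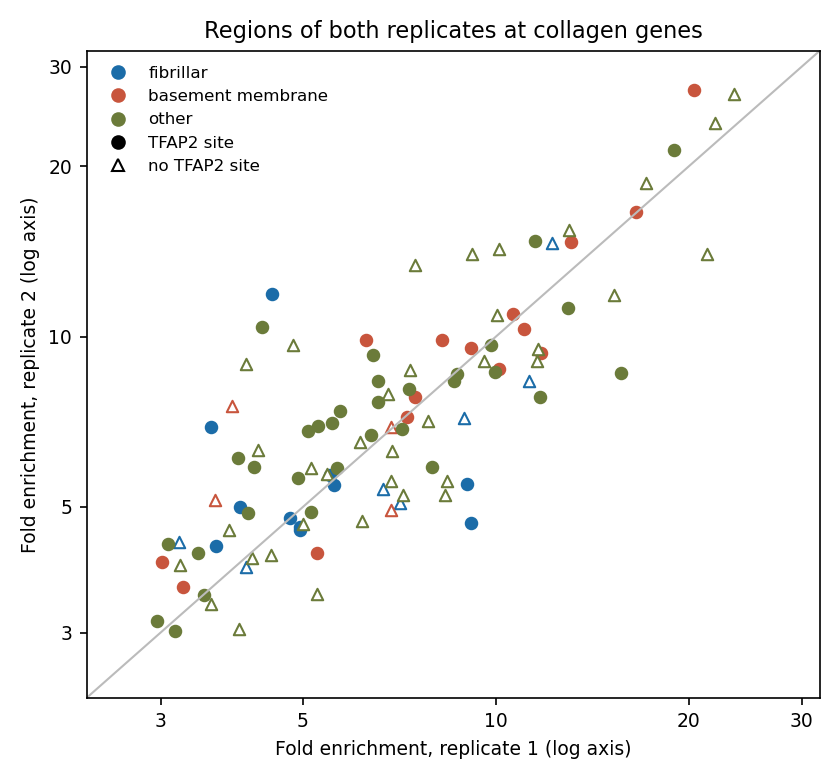
Fold enrichment in replicate 1 (horizontal, log axis) against replicate 2 (vertical, log axis) of the 105 collagen regions found in both, coloured by class, with filled circles for regions with a GCCNNNGG match within 50 bp of the summit and open triangles for those without; the line marks equal values. Most points lay near the line, and the highest values came from basement membrane and other collagens.

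Collagen peaks were about as enriched as others. Their median fold was 5.91 in replicate 1 and 5.88 in replicate 2, against 5.53 and 5.72 over all peaks of chromosomes 1 to 19, a ratio of 1.05 ± 0.0281 (SD, n = 2). Among the shared regions, 12 of 105 (11.4%) were in the upper 10% of all regions found in both. The median of the mean fold was 5.56 over 18 fibrillar regions, 8.08 over 19 basement membrane regions and 6.85 over 68 others. It was 6.89 over the 105 together and 6.20 over all regions found in both replicates. The highest fibrillar value, 13.4 at Col5a2, was below the highest values of the other classes, 23.8 and 25.2.

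A GCCNNNGG match lay within 50 bp of the summit of 52.0% (42.9 to 60.9) of collagen peaks in replicate 1 and 52.8% (44.3 to 61.1) in replicate 2. In equally long windows centred 400 bp away on either side the share was 15.4% and 16.7%, and at all peaks it was 55.4% and 58.4%. Collagen summits thus held the match more often than their flanks, and at about the share of other peaks, whose values lie inside the collagen intervals. In the shared regions, read at the replicate 1 summit, it was found in 11 of 18 fibrillar regions (61.1%), 15 of 19 basement membrane regions (78.9%) and 32 of 68 others (47.1%). The share over all shared regions was 57.2%.

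Sites of other factors active in melanocytes were searched at the same summits after the data were seen. The AP-1 site TGANTCA was present in 15 of 105 shared collagen regions (14.3%, 8.22 to 22.5), against 8.3% of all 15732 shared regions, and 8 of the 15 lacked a GCCNNNGG match. The TEAD site GGAATG was present in 11 (10.5%, against 10.5%), the SOX site ACAANGG in 4 (3.81%, against 7.1%), the M-box TCATGTG in 3 (2.86%, against 2.0%) and the E-box CACGTG in 1 (0.952%, against 1.8%). The background value lay inside the collagen interval for each of these motifs. Among the 6 most enriched regions without a GCCNNNGG match, the Col14a1 downstream window held an M-box, that of Col8a1 intron 2 an AP-1 site and that of Col28a1 downstream a TEAD site. A match is a run of letters and does not show that a factor was bound.

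From 250 bases upstream to 50 downstream of the 5′ end, collagens had a median GC content of 60.3% against 55.3% for all protein-coding genes. Their CpG ratio, observed over expected, was lower, at 0.442 against 0.544. A GCCNNNGG match was present in 30 of 41 collagen windows (73.2%) and in 58.7% of all. It was present in 6 of the 7 collagens with a promoter summit in both replicates (85.7%) and in 24 of the other 34 (70.6%). Over all protein-coding genes the shares were 74.2% with such a summit and 55.4% without. None of the shared promoter regions of the 7 collagens had its summit inside the sequence searched here. The split among collagens therefore does not relate the match to those summits.

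Genes whose products modify, secrete, cross-link, bind or degrade collagen were read in the same way, from a list of 48 symbols of which 47 were found. In this list 16 genes (34.0%, 20.9 to 49.3) had a promoter summit in both replicates, against 17.5% of all protein-coding genes and 17.1% of the collagens. They were 6 of 14 hydroxylases, their partners and glycosyltransferases, 2 of 2 folding and secretion genes, 5 of 13 genes of propeptide cleavage and cross-linking, 2 of 10 receptors and 1 of 8 degrading proteases. Sparc, a collagen-binding matrix protein, had the strongest, with 16.6 and 13.2. Adamts14, which removes procollagen amino propeptides, followed with 10.7 and 10.5.

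Loxl3, a cross-linking lysyl oxidase-like enzyme, had 9.62 and 9.15, and P3h1 (annotated as Lepre1), a prolyl hydroxylase, had 9.44 and 9.15. Plod2, a lysyl hydroxylase, had 8.69 and 7.76, and Serpinh1, the collagen chaperone of the endoplasmic reticulum, 7.88 and 7.77. The receptors were Itga1, an integrin chain, with 5.52 and 6.35, and Ddr1, a receptor tyrosine kinase, with 6.10 and 5.21. Mmp14, a membrane-bound protease, had 3.94 and 4.27. In the wider window 38 of 47 (80.9%) had summits of both replicates, against 80.5% of the collagens and 60.6% of all protein-coding genes.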

How the data were processed

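TFAP2A-bound chromatin of melan-a cells was precipitated in 2 ChIP replicates, with 1 input control for which no values were used here. The submitters' processing notes name BWA, MACS 1.4.2 and build mm9. The lists have the narrowPeak layout, with q-values and summit offsets, that later MACS versions write, so the version behind the fold, q-value and summit columns is uncertain. The authors deposited 1 peak list per replicate, called on each replicate and not on pooled reads. The deposited columns were a fold enrichment (a ratio), the -log10 of the p-value, the -log10 of the q-value, a score and a summit offset. The deposited score only restated the -log10 p, times 10 and without decimals, in every peak and was not used. The lowest deposited -log10 p was 5.05 and 5.06, so weaker regions are not listed, and the number of reads behind the lists is unknown.

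Summits were counted in windows of GENCODE mouse version 1 genes on build mm9, where a promoter reached from 5 kb before to 1 kb after any TSS, and a gene window was the body with 50 kb on either side. Peaks of the replicates were paired when each was the other's largest overlap of at least 1 bp. The fold of a region is the mean of its 2 values. GCCNNNGG was searched on both strands within 50 bp of summits. No significance test was made, since peaks and genes are not replicates. Named by rule were collagens with a promoter summit in either replicate, the 10 with the most summits (11 with a tie for the last place), those with none, and the 10 shared regions of highest mean fold. The other collagens were described in addition to these. The members, lists and rules were chosen with earlier results of these data known. Col4a5 and Col4a6 (chromosome X) fell outside the rule, and Emid2, an older symbol of Col26a1, was not counted. Alternatives were other windows, thresholds, start sites and each replicate alone. Scripts were checked on simulated data. Software was samtools 1.23.1, pysam 0.24.0, pandas 2.3.3, matplotlib 3.10.9, scipy 1.17.1, numpy 2.4.6 and Python 3.11.15.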

Additional observations from a re-analysis of the deposited data

How the results depend on the processing

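Over 13 results and 103 alternatives, 65 values stayed within the limits set (1.5 times for counts, 1 SD between replicates for other values) and 38 moved. The collagens with a promoter summit in both replicates numbered 7, and became 3 with promoters of 1 kb to each side, 2 with 5′ ends only, 2 in the upper 50% by enrichment and 3 with protein-coding transcripts only, an alternative chosen after seeing the data. The shares of all genes were 13.2% with 1 kb (collagens 7.32%), 14.2% with 5′ ends (4.88%), 6.56% in the upper 50% (4.88%) and 16.3% with protein-coding transcripts (7.32%). In the same order the 3 fibrillar genes became 1, 1, 0 and 1, and the 4 others 2, 1, 2 and 2. With Col7a1, Col15a1 and Col18a1 counted as basement membrane genes, 1 gene of that class was called in place of 0. Leaving out a replicate gave 9 to 13 collagens, 3 to 5 fibrillar and 0 to 2 basement membrane genes, with the higher value from replicate 2 alone. The collagen share was then 22.0% against 19% of all genes in replicate 1 and 31.7% against 21.4% in replicate 2, above the genome-wide share, whereas in both replicates it was 17.1% against 17.5%.

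In the gene window, the gene body alone lowered the 33 collagens to 21, the 7 fibrillar to 4 and the 22 others to 13. A flank of 10 kb also left 13 others, and the upper 50% by enrichment left 2 fibrillar genes. The share of all genes fell too, to 21.5% for the body (collagens 51.2%), 36.2% with 10 kb (53.7%) and 39.7% in the upper 50% (58.5%). The median of 2.5 summits per window became 1.5 with 10 kb, 4 with 100 kb, and 1 in the body alone, in the upper 50% by enrichment or with summits nearest to a collagen TSS. The density of 16.5 per Mb became 18.2 in the body, 8.76 in the upper 50% and 13.0 with summits nearest to a collagen TSS. The fold ratio of 1.05 became 1.10 with -log10 p and 1.01 with 100 kb. The site share of 52.4% became 16.3% with the longer consensus GCCNNNGGC, 62.0% within 100 bp, 50.5% with 10 kb, 53.0% with 100 kb, 53.2% at a -log10 q of at least 5 and 54.1% in the upper 50%. The 16 of 47 processing and receptor genes became 9 of 47 in the upper 50%, where the share of all genes fell too, to 6.56%. No paired analysis was possible because no result came from a test between groups. The unknown depth limits how far weak peaks seen in 1 replicate can be read.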

Other observations

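The collagens outside the rule were bound as well. Emid2, an older symbol of Col26a1, had 2 summits in its window in each replicate, 1 of them in its promoter, with highest folds of 9.81 in replicate 1 and 9.98 in replicate 2. Col4a5 and Col4a6, which adjoin on chromosome X, shared 1 region with folds of 4.76 and 6.98 and had no promoter summit.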
